A study of Homo sapiens with 18 samples.

Results

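Cohesin is the ring-shaped complex that embraces DNA, and 8 genes of its core were followed here. SMC1A, SMC3 and RAD21 encode the ring of somatic cells, STAG1 and STAG2 encode the alternative subunits that bind it, and STAG3, SMC1B and REC8 encode the meiotic counterparts of the STAG proteins, SMC1A and RAD21. The members were chosen by their place in the complex, with earlier results of these data known, and make up 8 of the 20329 genes with a count in each library. Polyadenylated RNA of HAP1 cells, a near-haploid human line derived from a chronic myeloid leukaemia and carrying mutant p53, was sequenced in 18 libraries that fall into 6 groups of 3. Control A (HAP1 WT), *ΔWAPL* clone 3.3 (WaplKO_3.3), *ΔSCC4* (SCC4KO) and *ΔWAPL*/*ΔSCC4* (WaplKO_3.3/SCC4KO) were compared within set A. Control B (HAP1 WT) was the control of *ΔWAPL* clone 1.14 (WaplKO_1.14) in set B. A Blasticidin cassette was inserted into WAPL and a Puromycin cassette into SCC4, whose gene symbol is MAU2, and the double knockout was made by removing SCC4 from *ΔWAPL* cells. Each WAPL genotype is thus a single clone, no second *ΔSCC4* line is labelled, and effects of a genotype and of its clone cannot be told apart. The labels do not say whether the 3 libraries of a group came from separate cultures, so the p-values measure the spread between these libraries only, which may be technical.

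In background, SMC1 and SMC3 are long coiled-coil ATPases that meet at a hinge, and RAD21 closes the ring by bridging their heads. A STAG protein docks on RAD21 and provides contact with DNA and with partners such as CTCF, and a cohesin ring holds either STAG1 or STAG2. SCC4 with its partner SCC2 (NIPBL) helps cohesin to load and to extend chromatin loops, WAPL opens the ring and releases it, and in meiosis REC8, STAG3 and SMC1B replace their somatic relatives along the chromosome axes. The comparisons address whether cells that cannot release cohesin, cannot load it normally, or lack both activities express its subunits at other levels.

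The upstream sequences of STAG1, STAG2 and the 3 meiotic members are shown. The choice rests on STAG1 having moved most among the expressed members while STAG2 passed in none of the 10 comparisons. It also rests on the meiotic genes having the lowest levels of the members. Each run holds the 250 bases before a RefSeq transcription start (GRCh38.p14, 5′ to 3′ on the strand of the gene). Capitals mark TTCCCGC, letters bound by E2F proteins, and CACGTG, the E-box. As background, an E2F6 and MGA complex that reads such letters keeps many germline genes silent in somatic cells. The windows are chr3:136752379-136752628 (minus) for STAG1, chrX:123960310-123960559 (plus, the first of 3 listed starts) for STAG2, chr7:100177668-100177917 (plus, the second of 2 listed starts) for STAG3, chr22:45413600-45413849 (minus) for SMC1B and chr14:24171830-24172079 (plus) for REC8.
STAG1: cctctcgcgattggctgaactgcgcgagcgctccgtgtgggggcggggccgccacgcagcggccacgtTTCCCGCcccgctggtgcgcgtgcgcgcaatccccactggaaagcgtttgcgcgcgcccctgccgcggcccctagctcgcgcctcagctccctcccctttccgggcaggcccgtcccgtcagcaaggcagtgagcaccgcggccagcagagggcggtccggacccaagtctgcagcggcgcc
STAG2: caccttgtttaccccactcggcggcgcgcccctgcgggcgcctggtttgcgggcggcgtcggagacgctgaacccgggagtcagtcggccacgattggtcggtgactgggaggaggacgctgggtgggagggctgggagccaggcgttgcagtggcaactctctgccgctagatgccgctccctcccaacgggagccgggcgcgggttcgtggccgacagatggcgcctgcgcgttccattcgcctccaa
STAG3: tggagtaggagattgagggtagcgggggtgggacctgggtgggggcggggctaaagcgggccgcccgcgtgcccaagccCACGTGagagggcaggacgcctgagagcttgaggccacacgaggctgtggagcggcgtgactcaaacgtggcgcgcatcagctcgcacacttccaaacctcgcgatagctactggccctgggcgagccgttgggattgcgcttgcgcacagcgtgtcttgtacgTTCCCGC
SMC1B: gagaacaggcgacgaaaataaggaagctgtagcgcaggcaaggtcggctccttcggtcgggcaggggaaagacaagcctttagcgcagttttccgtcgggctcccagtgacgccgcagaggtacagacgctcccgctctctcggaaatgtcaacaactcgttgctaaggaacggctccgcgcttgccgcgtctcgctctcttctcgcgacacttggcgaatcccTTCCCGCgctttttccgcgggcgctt
REC8: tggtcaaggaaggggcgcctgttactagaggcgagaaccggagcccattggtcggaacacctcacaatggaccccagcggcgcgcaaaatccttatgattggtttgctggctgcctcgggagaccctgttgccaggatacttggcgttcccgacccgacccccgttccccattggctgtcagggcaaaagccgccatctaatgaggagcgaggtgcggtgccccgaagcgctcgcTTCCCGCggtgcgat

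Of the 8 members, 7 had an entry in the RefSeq table and RAD21 had none. On both strands of the 300-base windows, which also hold the first 50 bases of the transcript, TTCCCGC was present in 5 of 7 members, against 7.82% of all 27305 genes and 6.55% of the 35116 windows. The heptamer began 7 bases upstream of the second start of STAG3, 15 bases upstream of that of REC8 and 26 bases upstream of that of SMC1B. It also lay 19 bases upstream of the second of 2 listed starts of SMC1A and 182 bases upstream of the start of STAG1. It was not in the windows of SMC3 or STAG2. CACGTG was present in 1 of 7 members, STAG3, and in 8.77% of genes. CCAAT was present in 4 of 7 members against 39.7% of genes, and GGGCGG in 7 of 7 against 48.3%. The 3 meiotic members, the lowest in level, thus shared the heptamer within a short distance of a start. However, SMC1A, one of the most abundant members, held it there too, and REC8 was counted in all 18 libraries (1.02 to 3.05 CPM).

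The somatic members lie on several chromosomes (GRCh37, the build called hg19 in the submitters' notes). SMC1A lies on chromosome X from 53401070 to 53449677 on the minus strand, and STAG2 on the same chromosome from 123094062 to 123556514 on the plus strand. SMC3 occupies chromosome 10 from 112327442 to 112365806, RAD21 chromosome 8 from 117858173 to 117887015 and STAG1 chromosome 3 from 136055078 to 136471245. Of the meiotic members, STAG3 lies on chromosome 7 from 99775186 to 99812010, SMC1B on chromosome 22 from 45739944 to 45809500 and REC8 on chromosome 14 from 24641062 to 24649463. SMC1A overlaps RIBC1, RAD21 overlaps UTP23, STAG1 overlaps PCCB and REC8 overlaps IPO4, each on the opposite strand, and STAG2 overlaps TENM1 on the opposite and SH2D1A on the same strand. Whether the counting used strand is not given in the sources used here, although the libraries kept it. STAG3 has near-identical partial copies that were not analysed here, so its few reads are uncertain.

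The total count on genes ranged from 10007646 in *ΔSCC4* replicate 2 to 20711127 in *ΔWAPL* clone 3.3 replicate 1. MAU2 fell from 65.6 ± 6.25 CPM (read counts scaled to library size, mean ± SD, n = 3) in control A to 0.702 ± 0.243 in *ΔSCC4* and 0.935 ± 0.1 in *ΔWAPL*/*ΔSCC4*. WAPL RNA fell less, from 99.2 ± 21.5 CPM in control A to 43.7 ± 5.65 in clone 3.3 and 45.5 ± 3.95 in the double knockout, and from 121 ± 14.6 in control B to 41.3 ± 2.89 in clone 1.14. Each target was thus low in the libraries labelled as lacking it. Of 6 blood cell markers, only TAL1 exceeded 1 CPM in every library, and PTPRC, GATA1, SPI1, CD33 and LMO2 were at or below 0.799 CPM. TAL1 itself ranged between 3.80 and 4.68 CPM in *ΔSCC4* and between 2.39 and 2.91 CPM in clone 1.14, and was at or above 52.3 CPM in the libraries of the other groups. In bulk RNA, fewer cells of a type and less RNA per cell cannot be told apart.

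Replicates 1 and 2 of control B stood apart for the members. In replicate 2, STAG2 and SMC3 lay 1.44 and 1.43 below their median over the 18 libraries on the log2 scale, and in replicate 1 they lay 0.54 and 0.46 below it. In the second library 1.43% of the 12976 expressed genes deviated further downwards than STAG2 and 1.51% further than SMC3. There, 504 genes (3.88%) lay at least 1 log2 unit below their median, against 110 (0.848%) in replicate 1 and 78 (0.601%) in replicate 3 of the same group. Such a spread was not particular to control B. The number was 643 (4.96%) in *ΔSCC4* replicate 1, 470 (3.62%) in *ΔSCC4* replicate 2 and 374 (2.88%) in control A replicate 1, libraries that were left out only singly. The transcripts of these 504 genes had a median GC content of 37.4% and a median length of 5.40 kb, against 48.5% and 3.43 kb over all expressed genes. The canonical transcripts of STAG2 (36.6% GC) and SMC3 (37.3%) were close to those values, while that of SMC1A had 47.0% GC and its level was at or above 817 CPM in all 3 libraries of control B. Over expressed genes, each library's deviation in log2 CPM from the gene's mean over the 18 libraries was correlated with GC content. The Spearman correlation was 0.05 and 0.27 in control B replicates 1 and 2. It was 0.52 in control A replicate 1 and 0.54 in *ΔSCC4* replicate 1, where STAG2 lay 0.14 below and 0.03 above its median. The part of base composition in these levels was not tested beyond a refit with a GC offset, in which each library's trend with GC content is removed. The main fold changes and ratios of members that rest on control B are given with and without replicates 1 and 2.

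**Figure D1:**
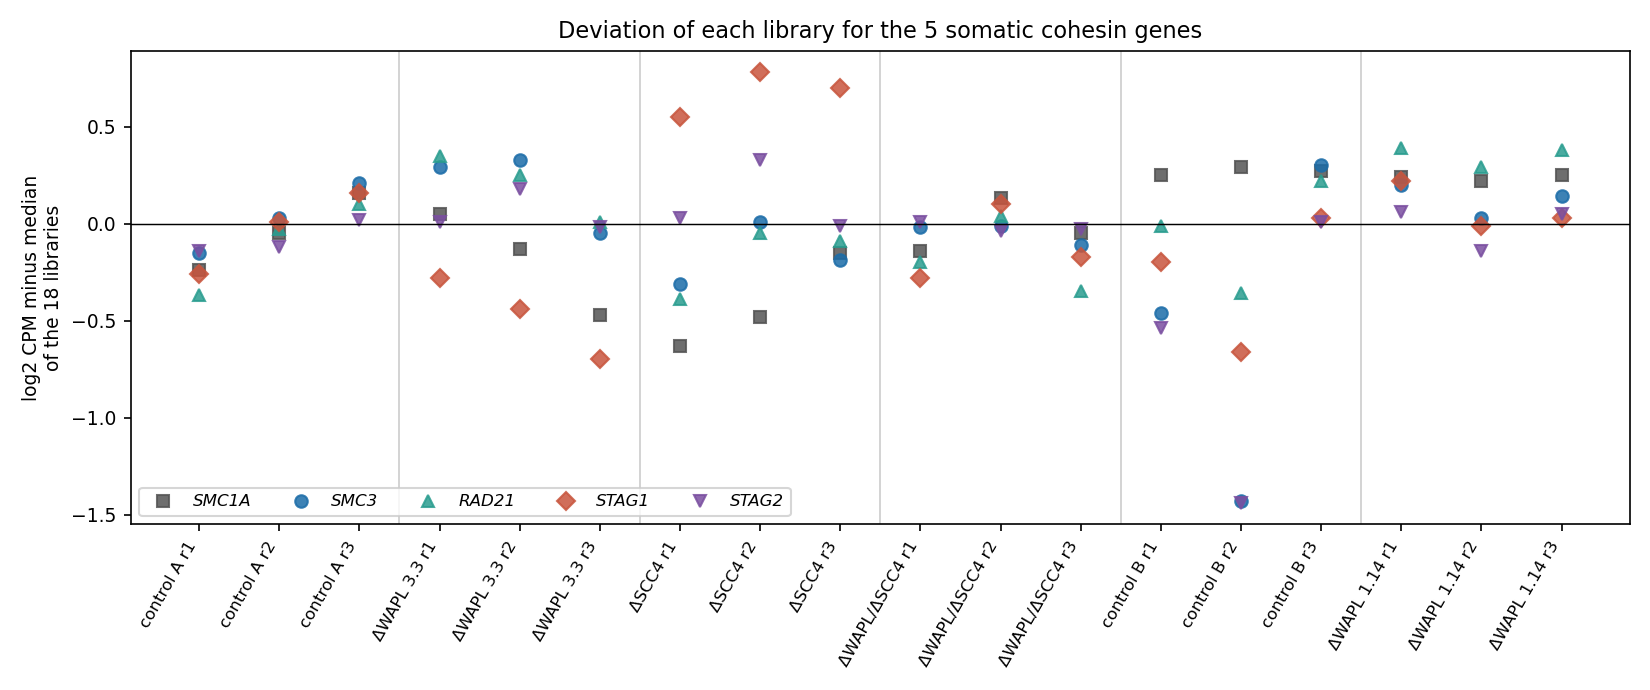
Deviation of the 5 somatic cohesin genes in each library, as log2 CPM minus the gene's median over 18 libraries (y axis), with libraries along the x axis and r1 to r3 for replicates. STAG1 was between 0.55 and 0.78 above its median in the 3 *ΔSCC4* libraries, and STAG2 and SMC3 were 1.44 and 1.43 below theirs in control B replicate 2.

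Levels between genes were set side by side as CPM per kb of the canonical transcript. Over 18 libraries RAD21, which closes the ring, had the highest mean, 134 CPM per kb (range 100 to 172). It was followed by STAG2 with 95.8 (36.8 to 126), SMC1A with 70.7 (45.7 to 86.8), SMC3 with 29.1 (11 to 37) and STAG1 with 16.3 (9.77 to 27.4). The ranges of RAD21 and STAG2, of STAG2 and SMC1A, and of SMC3 and STAG1 overlapped, whereas SMC1A and SMC3 had no overlap. RNA of the ATPase pair was thus unequal, and STAG2 exceeded STAG1 in every library. Per kb, 97.4% of genes were below RAD21, 96.3% below STAG2, 94.8% below SMC1A, 86.4% below SMC3 and 77.5% below STAG1. The meiotic members formed a separate tier. REC8 had a mean of 0.889 CPM per kb (0.448 to 1.34), STAG3 had 0.152 (0.0294 to 0.304), and neither overlapped its neighbour in the order. SMC1B had 1 read in the 18 libraries, in control A replicate 1. In each other library a count of 0 allowed a level of up to 0.150 to 0.305 CPM, the worth of 3 reads, which covers counting error only.

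**Figure D2:**
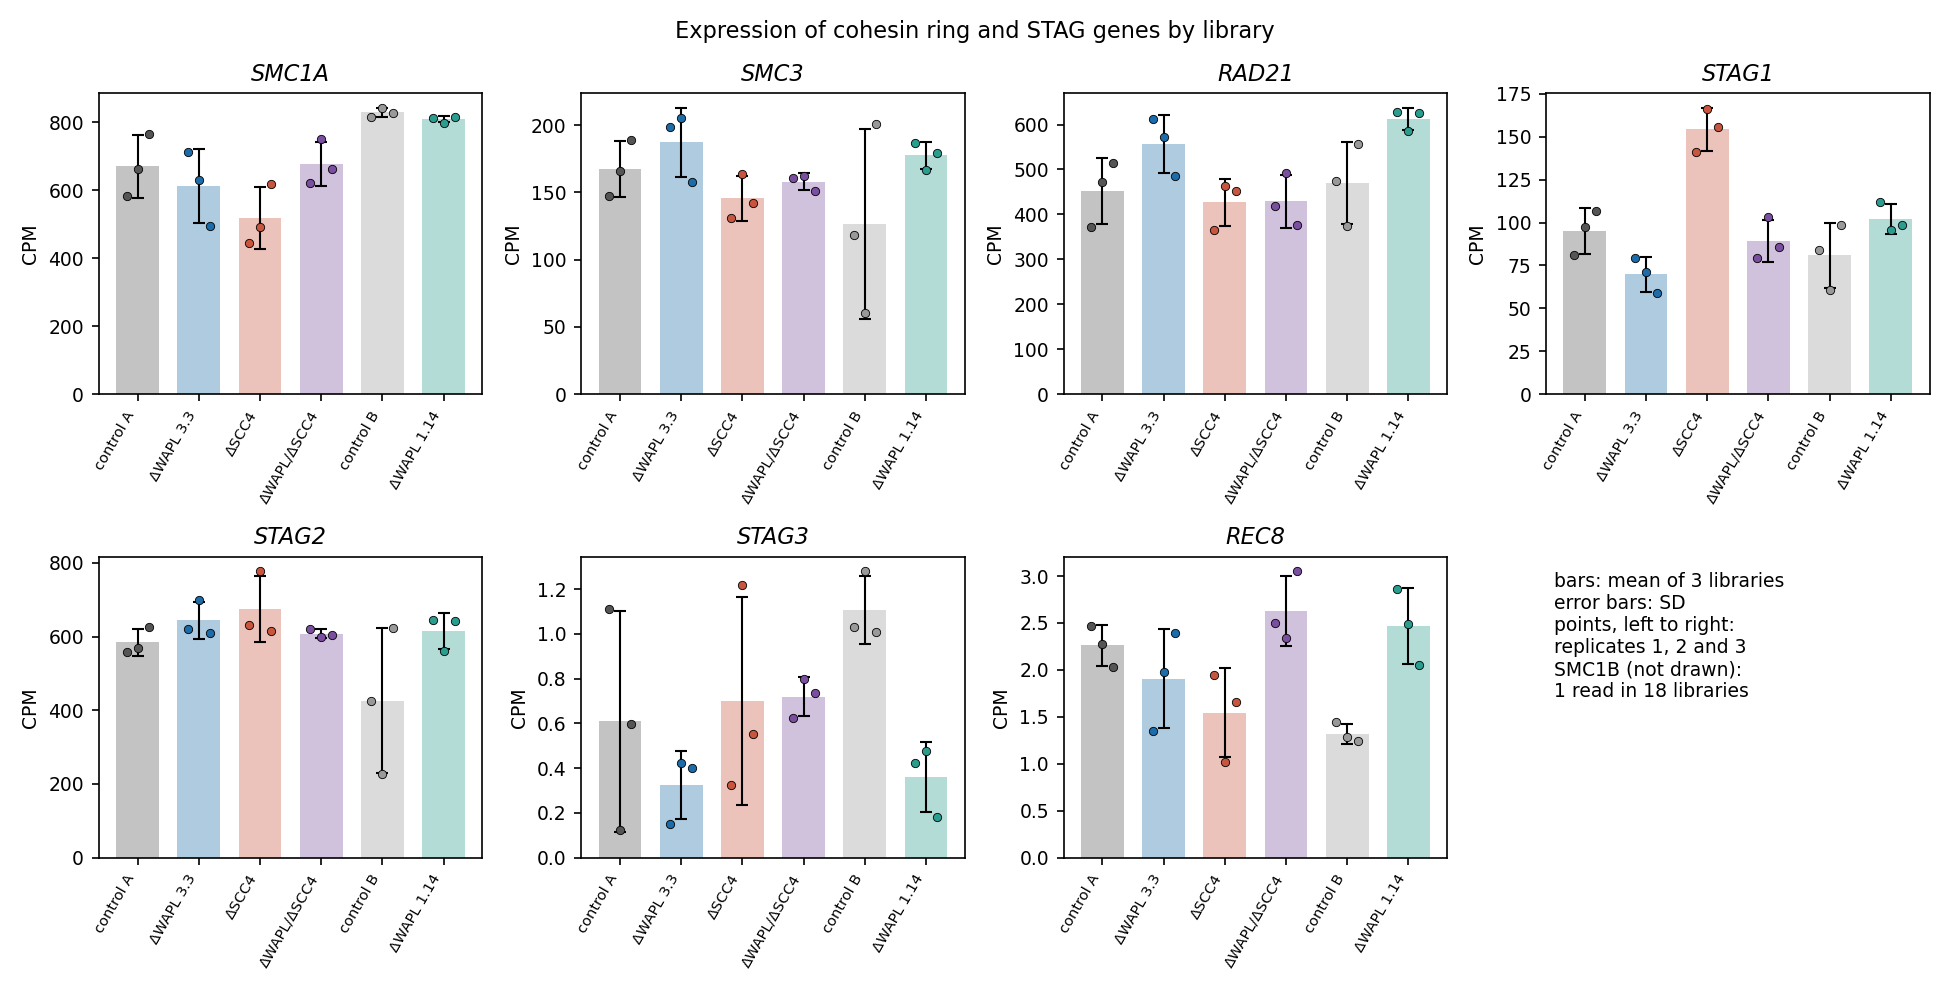
CPM of 7 cohesin genes (y axis, from 0, a scale of its own in each panel) in the 6 groups (x axis), with bars for the mean of 3 libraries, error bars for the SD and points for replicates 1 to 3 from left to right. STAG1 was at 141 to 166 CPM in *ΔSCC4* and at or below 112 CPM elsewhere, and control B spread from 60.6 to 201 CPM for SMC3 and from 228 to 622 CPM for STAG2.

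Among the ring genes, RAD21, the kleisin cut by separase in anaphase, was higher over both *ΔWAPL* clones. It was at 371, 471 and 514 CPM in control A and at 613, 572 and 485 CPM in clone 3.3. It was at 475, 375 and 557 CPM in control B and at 628, 585 and 626 CPM in clone 1.14. The groups of set A overlapped, whereas every clone 1.14 library was above every control B library. With the set as a covariate, the log2 fold change was 0.34 ± 0.10 (SE; adjusted p = 0.030, edgeR; exact permutation within sets, two-sided p = 0.015, where the smallest possible is 0.005). Neither clone passed alone, with 0.28 ± 0.14 (adjusted p = 0.34) for clone 3.3 and 0.38 ± 0.13 (adjusted p = 0.076) for clone 1.14. Clone 1.14 passed with a GC offset (0.25, adjusted p = 0.015), with DESeq2 (0.39, adjusted p = 0.049), and without control B replicate 2 (0.25, adjusted p = 0.034) or 3 (0.52, adjusted p = 0.0077). Without control B replicates 1 and 2 it did not, and the value was 0.14 ± 0.06 (adjusted p = 0.13). With a GC offset the joint value was 0.21 (adjusted p = 0.0028). With the replicate block it was 0.35 and did not pass (adjusted p = 0.054), and with both it was 0.22 (adjusted p = 0.013). The joint call was lost without control B replicates 1 and 2, where the log2 fold change was 0.24 (adjusted p = 0.15). It was also lost without any one of control A replicate 1, control B replicates 1 or 2, clone 3.3 replicates 1 or 2, or clone 1.14 replicates 1 or 3 (log2 fold change 0.28 to 0.34, adjusted p = 0.051 to 0.068).

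RAD21 did not pass in the cells without SCC4. It was at 366, 463 and 451 CPM in *ΔSCC4*, which overlapped control A, with replicate 1 below the lowest control A library (371 CPM). In *ΔWAPL*/*ΔSCC4* it was at 419, 493 and 376 CPM, within the span of control A. The log2 fold change against control A was -0.10 ± 0.15 (adjusted p = 0.75) and -0.07 ± 0.15 (adjusted p = 0.87), with intervals of ±2 SE from -0.39 to 0.20 and from -0.37 to 0.22. Against clone 3.3, the double knockout had a log2 difference of -0.37 ± 0.12 (adjusted p = 0.067). That difference passed with a GC offset (-0.30, adjusted p = 0.0067) and without clone 3.3 replicate 3 (-0.46, adjusted p = 0.012) or double knockout replicate 2 (-0.47, adjusted p = 0.013), so the call turned on the processing and on single libraries.

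SMC1A, which pairs with SMC3 in the somatic ring, had its lowest levels in *ΔSCC4*. It was at 582, 662 and 767 CPM in control A, at 444, 491 and 619 CPM in *ΔSCC4*, and at 622, 750 and 663 CPM in *ΔWAPL*/*ΔSCC4*. The first pair of groups overlapped, and the latter pair did not. SMC1A was higher in the double knockout than in *ΔSCC4* by 0.39 ± 0.13 on the log2 scale (adjusted p = 0.038), while *ΔSCC4* against control A gave -0.38 ± 0.16 (adjusted p = 0.17). No label states a pairing, but same-numbered replicates of *ΔSCC4* and control A shared their deviations (r = 0.68, 0.12 and 0.61 over genes). A fit with a replicate block is given for that reason. It rests on a likeness seen in these same data and called 5754 genes, so it is no separate evidence. In that fit SMC1A fell in *ΔSCC4* by 0.39 (adjusted p = 6.02e-05). It also passed there without control A replicate 1 (-0.47, adjusted p = 0.043) or *ΔSCC4* replicate 3 (-0.53, adjusted p = 0.047). The WAPL by SCC4 interaction was 0.54 ± 0.21 for SMC1A (adjusted p = 0.13), and passed without *ΔSCC4* replicate 3 (0.69, adjusted p = 0.043). The call between the double knockout and *ΔSCC4* was lost on leaving out any one of *ΔSCC4* replicates 1 or 2 or of the 3 double knockout libraries (log2 difference 0.29 to 0.46, adjusted p = 0.057 to 0.17).

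In the *ΔWAPL* clones SMC1A differed little from control. It was at 713, 629 and 495 CPM in clone 3.3, across the control A levels, with a log2 fold change of -0.15 ± 0.15 (adjusted p = 0.72). In set B its 6 values lay between 799 and 843 CPM. The log2 fold change of clone 1.14 was -0.04 ± 0.04 (adjusted p = 0.50), with an interval from -0.12 to 0.04, the narrowest of any member. Control B was higher than control A, by 0.30 ± 0.12 (unadjusted p = 0.034, adjusted p = 0.41), with no overlap between the libraries. Leaving out control B replicates 1 and 2, the clone 1.14 value was -0.04 ± 0.05 and the difference between the controls 0.27 ± 0.25.

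SMC3, the other ATPase of the ring, passed in none of the 10 comparisons. It was at 147, 166 and 189 CPM in control A, at 199, 205 and 158 CPM in clone 3.3, at 131, 164 and 142 CPM in *ΔSCC4* and at 161, 162 and 151 CPM in *ΔWAPL*/*ΔSCC4*. All 4 groups of set A overlapped. The log2 fold change against control A was 0.15 ± 0.15 for clone 3.3, -0.21 ± 0.14 for *ΔSCC4* and -0.09 ± 0.12 for the double knockout (adjusted p = 0.72, 0.40 and 0.81). With the replicate block, for which no label states a pairing, SMC3 fell in *ΔSCC4* by 0.21 (adjusted p = 0.026). In set B SMC3 was at 118, 60.6 and 201 CPM in control B and at 187, 167 and 179 CPM in clone 1.14, with a log2 fold change of 0.48 ± 0.36 (adjusted p = 0.36). Without control B replicates 1 and 2 it was -0.18 ± 0.07 (adjusted p = 0.086), and without replicate 3 it was 0.98 ± 0.24 (adjusted p = 0.020), so its direction and its call turned with these libraries. Between clone 3.3 and the double knockout SMC3 passed on leaving out clone 3.3 replicate 3 (-0.35, adjusted p = 0.041).

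STAG1 carried the clearest change of any member. It was higher in *ΔSCC4* than in control A, and in the double knockout it overlapped control A. Its levels were 80.8, 97.2 and 107 CPM in control A and 141, 166 and 156 CPM in *ΔSCC4*. They were 79.5, 103 and 85.5 CPM in *ΔWAPL*/*ΔSCC4*. Every *ΔSCC4* library was above every library of the other 5 groups, of which the highest was clone 1.14 replicate 1 at 112 CPM. The log2 fold change of *ΔSCC4* against control A was 0.69 ± 0.14 (adjusted p = 0.011), which is 1.61-fold. That of the double knockout against *ΔSCC4* was -0.79 ± 0.13 (adjusted p = 0.00023), and that of the double knockout against control A was -0.09 ± 0.15 (adjusted p = 0.84; interval -0.38 to 0.20). The rise kept its size without control A replicate 2 (0.69, adjusted p = 0.064) or *ΔSCC4* replicate 2 (0.65, adjusted p = 0.060) but did not pass the threshold. The difference between the double knockout and *ΔSCC4* passed in every alternative run.

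In *ΔWAPL* clone 3.3 STAG1 was at 79.5, 71.0 and 59.2 CPM, below all 3 control A libraries. The log2 fold change was -0.46 ± 0.16 (adjusted p = 0.096), and it passed with a GC offset (-0.57, adjusted p = 0.00096) or without control A replicate 1 (-0.56, adjusted p = 0.015). Clone 1.14 went the other way, with 112, 95.7 and 98.6 CPM against 83.8, 60.8 and 98.4 CPM in control B and a log2 fold change of 0.33 ± 0.16 (adjusted p = 0.19). Without control B replicates 1 and 2 that value was 0.05 ± 0.08 (adjusted p = 0.71), and without replicate 3 it was 0.49 ± 0.14 (adjusted p = 0.029). The difference between the clones was 0.78 ± 0.24 (unadjusted p = 0.0061, adjusted p = 0.15) and passed with a GC offset (0.78, adjusted p = 0.0022), but it was 0.50 (adjusted p = 0.69) without the 2 control B libraries and 0.94 (adjusted p = 0.048) without the third. The double knockout lay above clone 3.3, from which it was made, by 0.36 ± 0.14 (adjusted p = 0.13). That difference passed with a GC offset (0.44, adjusted p = 0.0028) or without clone 3.3 replicate 1 (0.46, adjusted p = 0.037). In the order of group means, STAG1 ran from *ΔSCC4* (155 CPM) over clone 1.14 (102), control A (95.1), *ΔWAPL*/*ΔSCC4* (89.4) and control B (81.0) to clone 3.3 (69.9). Apart from *ΔSCC4*, each group overlapped the next in this order. The difference between the double knockout and *ΔSCC4* (-0.79) and that between clone 3.3 and control A (-0.46) differed by -0.32 ± 0.20 (adjusted p = 0.34). The double knockout was not derived from the *ΔSCC4* line, so the value of -0.79 compares separately made lines.

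STAG2, the more abundant STAG gene and one often mutated in cancer, passed in none of the 10 comparisons. It was at 559, 568 and 626 CPM in control A, at 621, 700 and 610 CPM in clone 3.3, at 632, 777 and 614 CPM in *ΔSCC4* and at 621, 599 and 604 CPM in the double knockout. These groups overlapped control A. The log2 fold change against control A was 0.12 ± 0.13 for clone 3.3, 0.19 ± 0.13 for *ΔSCC4* and 0.05 ± 0.10 for the double knockout, with the highest upper bound of these at 0.44. The replicate block, for which no label states a pairing, together with a GC offset gave 0.22 in *ΔSCC4* (adjusted p = 0.0037). In set B STAG2 was at 426, 228 and 622 CPM in control B and at 645, 560 and 641 CPM in clone 1.14. The difference of 0.53 ± 0.31 (adjusted p = 0.25) was -0.02 ± 0.07 without control B replicates 1 and 2 and 0.91 ± 0.23 (adjusted p = 0.022) without replicate 3.

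**Figure D3:**
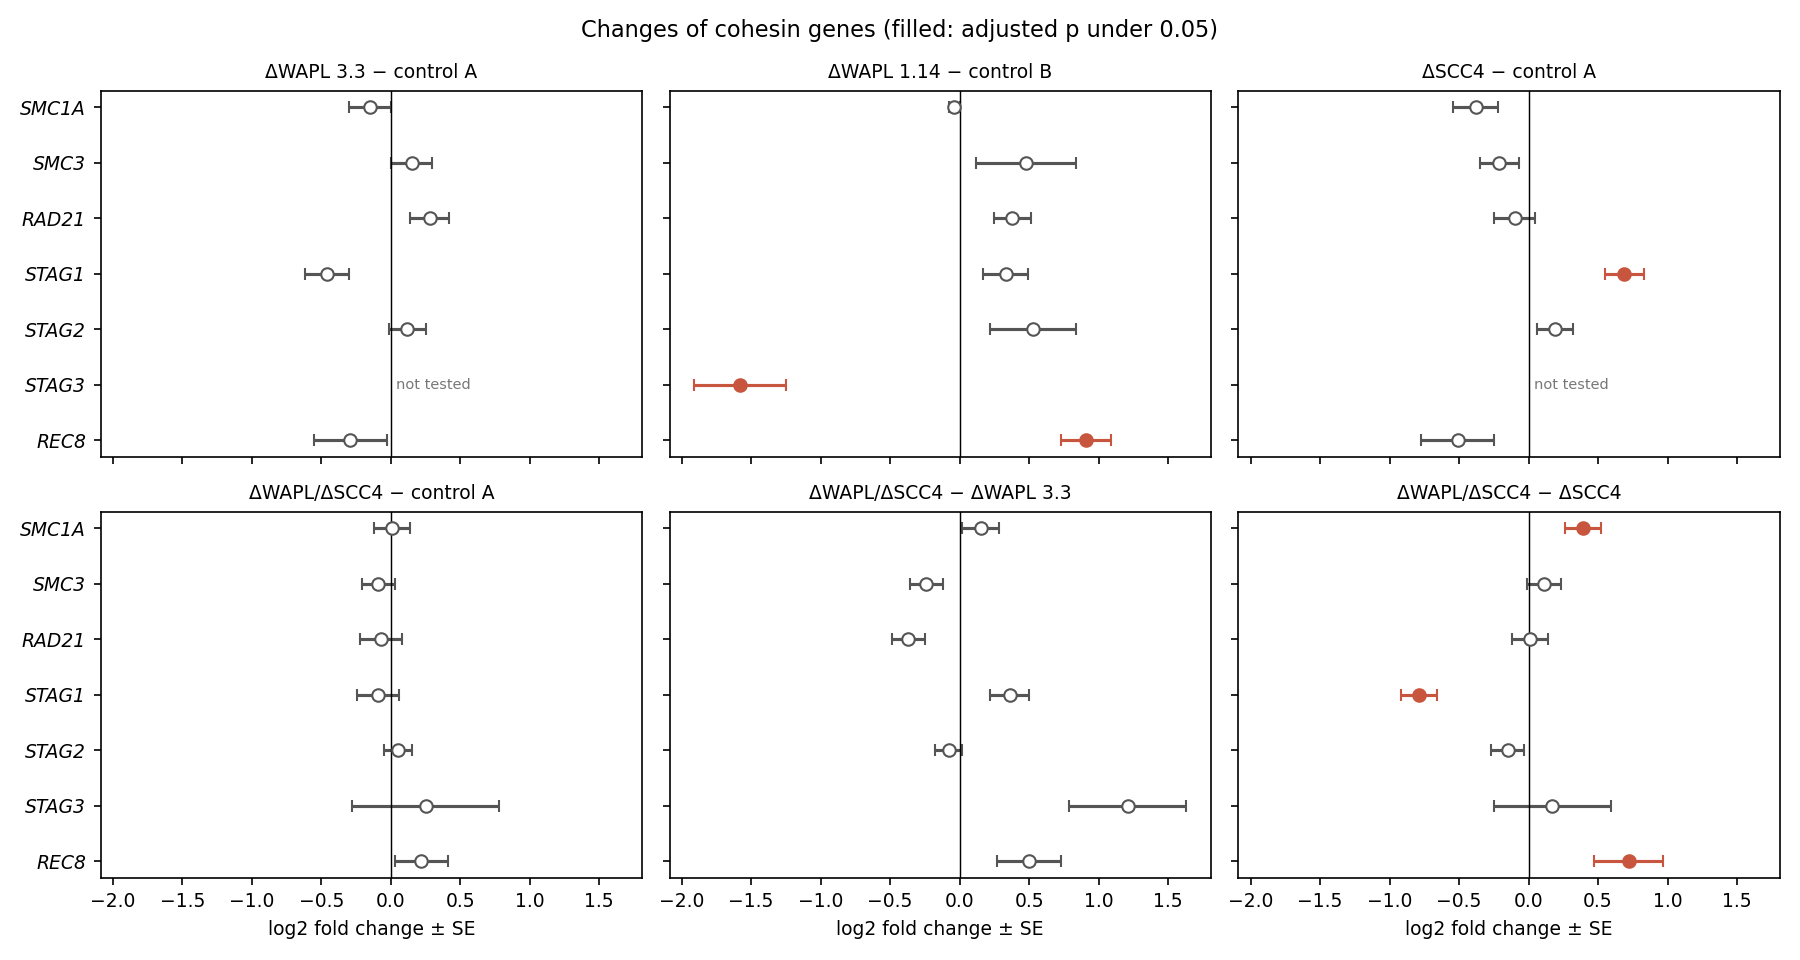
Log2 fold change with its standard error (x axis) of 7 cohesin genes (y axis) in 6 comparisons, with filled points for an adjusted p under 0.05 in edgeR's quasi-likelihood test. STAG1 is at 0.69 in *ΔSCC4* and at -0.79 in the double knockout against *ΔSCC4*, and STAG3 and REC8 are at -1.58 and 0.91 in clone 1.14.

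The balance of the STAG transcripts was read as the ratio of STAG1 to STAG2 counts within a library, which needs no scaling between libraries. It was 0.144, 0.171 and 0.172 in control A and 0.128, 0.101 and 0.0971 in clone 3.3. It was 0.224, 0.214 and 0.254 in *ΔSCC4* and 0.128, 0.172 and 0.142 in the double knockout. All *ΔSCC4* ratios were above, and all clone 3.3 ratios below, those of control A, with a mean ratio 1.42-fold and 0.667-fold that of control A. Each had an exact permutation p = 0.1, which is the smallest that 3 libraries against 3 allow. The double knockout overlapped control A (0.903-fold, exact permutation p = 0.4). In set B the ratio was 0.197, 0.267 and 0.158 in control B and 0.174, 0.171 and 0.154 in clone 1.14, with a log2 difference of -0.29 that turned to 0.07 without control B replicates 1 and 2. Over both clones the log2 difference was -0.44 (exact permutation p = 0.015, adjusted over the 15 ratio comparisons 0.225), and without those libraries it was -0.26 (exact permutation p = 0.11).

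The 2 other ratios tested moved less evenly. SMC1A to SMC3 was 3.96, 3.98 and 4.07 in control A and 3.58, 3.08 and 3.14 in clone 3.3, with no overlap and a log2 difference of -0.30 (exact permutation p = 0.1). With a GC offset that difference was -0.08. In control B the ratio was 6.89, 13.9 and 4.12, against 4.34, 4.80 and 4.54 in clone 1.14, and the third library alone resembled the clone. RAD21 to SMC3 overlapped control in each of the 4 comparisons within a set, with folds from 0.842 to 1.11. None of the 15 ratio comparisons passed after adjustment, the lowest adjusted p being 0.225.

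**Figure D4:**
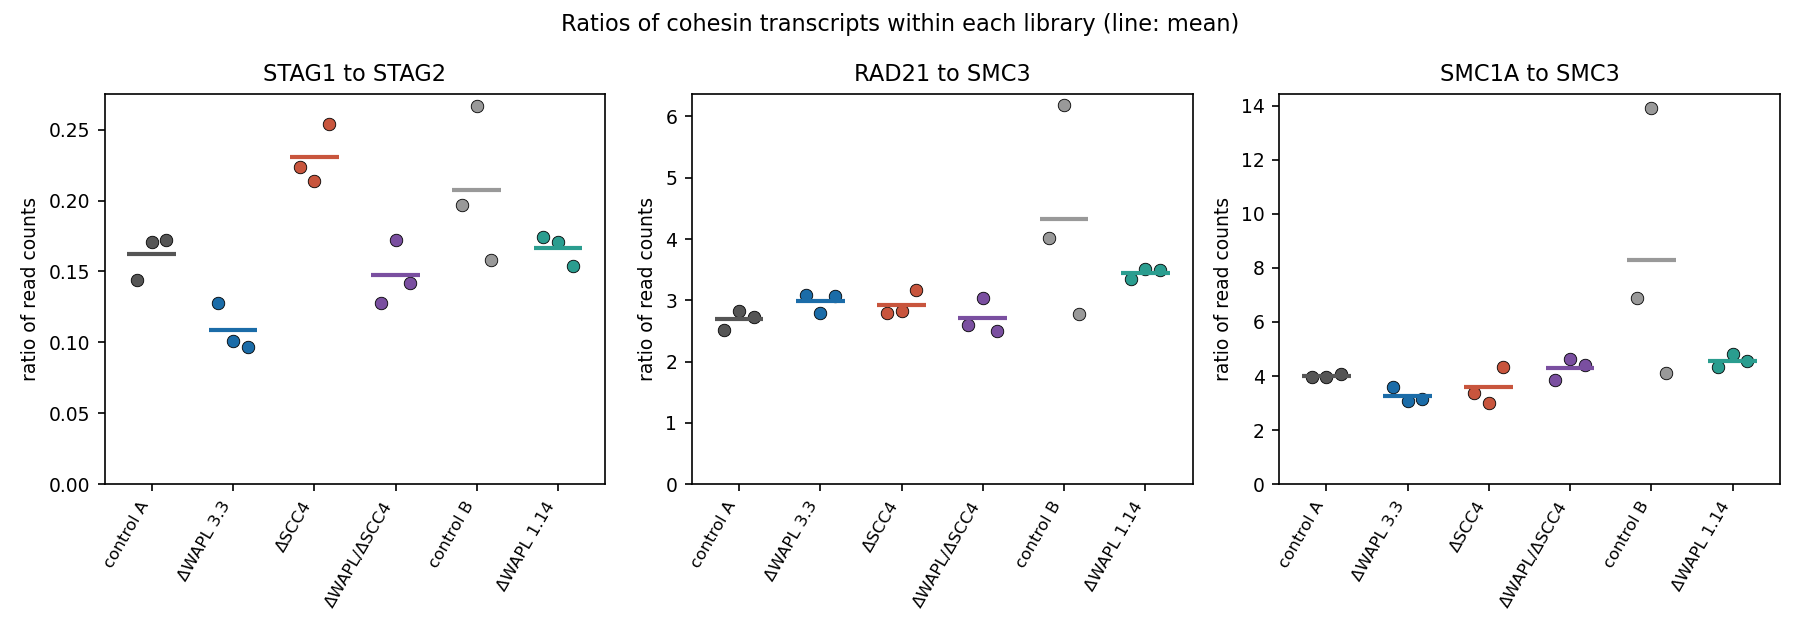
Ratio of read counts (y axis, from 0) of STAG1 to STAG2, RAD21 to SMC3 and SMC1A to SMC3 in each library of the 6 groups (x axis), with points for replicates 1 to 3 and a line for their mean. STAG1 to STAG2 was 0.214 to 0.254 in *ΔSCC4* and 0.0971 to 0.128 in clone 3.3, either side of 0.144 to 0.172 in control A.

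The meiotic members were low, with STAG3 and SMC1B near the detection limit. STAG3, the meiotic STAG protein, was counted 15, 19 and 18 times in control B and 8, 8 and 3 times in clone 1.14, which is 1.03, 1.28 and 1.01 CPM against 0.424, 0.475 and 0.181 CPM. No clone 1.14 library reached control B, and STAG3 fell by 1.58 ± 0.33 on the log2 scale (adjusted p = 0.015). STAG3 passed the filter on low counts, which asks for about 10 reads in as many libraries as the smallest group holds, through control B alone, so a gene kept this way had to be lower in clone 1.14. Without the filter the value was -1.57 (adjusted p = 0.017). The call was lost without control B replicate 1 (-1.62, adjusted p = 0.051) and without its replicates 1 and 2 (-1.46 ± 0.53, adjusted p = 0.062). In set A STAG3 was counted 17, 2 and 10 times in control A and 3, 6 and 6 times in clone 3.3, and it did not pass the filter there. Over both clones it fell by 1.32 ± 0.40 (adjusted p = 0.032; exact permutation within sets p = 0.065), kept by the filter through control libraries alone, and without the filter by 1.33 (adjusted p = 0.025). That call was lost without any one of control A replicate 1, clone 3.3 replicate 1, control B replicates 1 or 2, or any clone 1.14 library (log2 fold change -1.13 to -1.38, adjusted p = 0.055 to 0.082), and without both control B libraries (-1.18, adjusted p = 0.14). In *ΔSCC4* it had 5, 12 and 8 reads and in the double knockout 11, 13 and 13. Every double knockout library exceeded every clone 3.3 library, but the gene passed the filter there through the double knockout alone (log2 difference 1.21 ± 0.42, adjusted p = 0.084).

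REC8, the meiotic kleisin, was at 1.44, 1.28 and 1.24 CPM in control B and at 2.86, 2.49 and 2.05 CPM in clone 1.14, from 19 to 22 and from 34 to 54 reads. The groups did not overlap, and REC8 rose by 0.91 ± 0.18 on the log2 scale (adjusted p = 0.013). Without control B replicates 1 and 2 the value was 1.00 ± 0.32 (adjusted p = 0.038), with DESeq2 it was 0.91 (adjusted p = 0.057), and without clone 1.14 replicate 1 it was 0.78 (adjusted p = 0.051). In set A it was at 2.47, 2.28 and 2.03 CPM in control A, 1.35, 1.98 and 2.39 CPM in clone 3.3, 1.95, 1.02 and 1.66 CPM in *ΔSCC4* and 2.50, 2.34 and 3.05 CPM in the double knockout. REC8 was higher in the double knockout than in *ΔSCC4* by 0.72 ± 0.25 (adjusted p = 0.041). That call was lost with DESeq2 (0.75, adjusted p = 0.13), and without *ΔSCC4* replicate 2 or double knockout replicates 1 or 3 (0.53 to 0.77, adjusted p = 0.081 to 0.16). The clones differed by 1.19 ± 0.31 (adjusted p = 0.070), and by 1.24 (adjusted p = 0.014) with a GC offset and 1.39 (adjusted p = 0.033) without clone 3.3 replicate 3, but it was 1.27 (adjusted p = 0.30) without control B replicates 1 and 2. Control A and control B did not overlap for REC8 either (log2 difference -0.79 ± 0.20, unadjusted p = 0.0032, adjusted p = 0.15, and -0.90 ± 0.41 without control B replicates 1 and 2).

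Counted by comparison, calls among the members were few. In *ΔSCC4* against control A 1 of 6 tested members rose and 0 fell, where 5.45% of all 12503 genes tested rose. With the replicate block 3 members passed, beside 5754 of the 12503 genes. In the double knockout against *ΔSCC4* 2 of 7 rose and 1 fell, against 13.7% and 13.6% of 12604 genes. In clone 1.14 against control B 1 of 7 rose and 1 fell, against 8.7% and 11.4% of 12636 genes, and without both doubted control B libraries only REC8 passed. Over both clones 1 of 7 rose and 1 fell, against 8.56% and 9.13% of 12786 genes, and without those libraries 0 passed. The falls in the last pair of comparisons are of STAG3, which the filter kept through control libraries alone. With such small numbers these shares are not set apart from the background.

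No member passed edgeR's test in the other comparisons, nor DESeq2's. Clone 3.3 against control A gave 0 of 6, where 8.07% of all 12489 genes passed, and 1 member, STAG1, had an unadjusted p under 0.05, where 17.5% of all genes did. The double knockout gave 0 of 7 against control A, with 7.95% of all genes called, and 0 members unadjusted beside 17.6% of genes. Against clone 3.3 it gave 0 of 7, with 10.6% of all genes called, and 4 unadjusted (RAD21, STAG1, STAG3 and REC8) beside 22.9%. The difference between the clones gave 0 of 7 (2.65% of all genes called) and 2 unadjusted, STAG1 and REC8 (10.9%). The WAPL by SCC4 interaction gave 0 of 7 (11.3% of all genes called) and 2 unadjusted, SMC1A and REC8 (24.9%), and with a GC offset RAD21, STAG1 and REC8 passed it. Control B against control A gave 0 of 7 (0.64% of all genes called) and 2 unadjusted, SMC1A and REC8 (11.1%). The median log2 fold change of the tested members was -0.01 in clone 3.3, 0.38 in clone 1.14, -0.15 in *ΔSCC4* and 0.01 in the double knockout against controls, beside 0.00 over all genes in each. The median in clone 1.14 was -0.02 without control B replicates 1 and 2.

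The other lists of the pathway were counted in the same fits. Among 13 regulators of cohesin loading, release and acetylation, all tested, the knocked-out genes themselves were the only calls against controls. These were WAPL in each *ΔWAPL* genotype (log2 fold change -1.20 ± 0.17 in clone 3.3, -1.55 ± 0.10 in clone 1.14) and MAU2 in *ΔSCC4* and the double knockout. Between the double knockout and *ΔSCC4*, ESCO2, an acetyltransferase of SMC3, rose by 0.87 ± 0.19 (adjusted p = 0.0026), and it was at 12.9 to 18 CPM in *ΔSCC4* and 23.8 to 38.9 CPM in the double knockout. Of 14 genes of other SMC complexes, 0 rose and 1 fell in *ΔSCC4*, where 5.45% of all genes tested rose and 4.03% fell. The 1 that fell was the condensin II gene NCAPD3 (-0.49 ± 0.11, adjusted p = 0.022). In the double knockout against *ΔSCC4* 3 were higher and 0 lower, beside 13.7% and 13.6% of all 12604 genes. Among the 3 were NCAPG2 (0.77 ± 0.15) and NCAPD3 (0.52 ± 0.11). In clone 1.14 the condensin I gene NCAPD2 fell (-0.27 ± 0.06, adjusted p = 0.020), where 11.4% of all genes fell. In clone 3.3 none of the 14 passed, where 8.07% of all genes did. SMC1A, NCAPD3 and NCAPG2 were all called higher in the double knockout against *ΔSCC4*. With such small numbers, 3 of 14 is not set apart from the share over all genes.

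Of 15 counted genes of the meiotic chromosome axis and recombination, no more than 4 passed the filter in any comparison. MEIOB, which acts in meiotic recombination, had 0 to 2 reads in every library of the 3 genotypes without WAPL, against 28 to 47 in control A, 21 to 36 in *ΔSCC4* and 88 to 115 in control B. The recombinase gene DMC1 had 5 to 8 reads in *ΔSCC4* against 15 to 23 in control A, and passed the filter there through control A alone. STAG3 and REC8 thus sat beside other meiotic genes of low count. Among 12 proliferation genes, 0 passed in either *ΔWAPL* clone, where 8.07% (clone 3.3) and 20.1% (clone 1.14) of all genes did. BUB1 fell in *ΔSCC4* (-0.52 ± 0.15, adjusted p = 0.048), where 4.03% of all genes fell. In the double knockout against *ΔSCC4* 3 were higher, beside 13.7% of all genes. Among them were BUB1 (0.53 ± 0.13) and MKI67 (0.47 ± 0.16). From clone 3.3 to the double knockout CDK1 and TOP2A fell (-0.50 ± 0.11 and -0.47 ± 0.11), where 4.55% of all genes fell. The summed level of this list was 3690 to 3940 CPM in *ΔSCC4*, 4230 to 4670 CPM in control A and 4020 to 4230 CPM in the double knockout. Its part in the STAG1 and SMC1A values was not tested.

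Over the 18 libraries the members did not move as one. SMC3 and STAG2 had a Pearson r of 0.89 (Spearman rho 0.58) between their log2 CPM values, but 0.28 (rho 0.40) over the 16 libraries without control B replicates 1 and 2. SMC3 and RAD21 had 0.64 over 18 and 0.83 over 16 libraries, and SMC1A and SMC3 had -0.05 and 0.64. STAG1 had 0.49 with STAG2 and 0.02 with RAD21 over 18. These points share library depth and base composition and are given as a description. The genes whose profiles over the 18 libraries were most like each member were KIF1B and MYH10 for SMC1A (each r = 0.98), PPIG and SASS6 for SMC3 (0.98), OGFRL1 and HS2ST1 for RAD21 (0.98 and 0.97), and SKIC3 and DCUN1D1 for STAG2 (0.99). STAG1 was followed by GPC6 (0.95) and PIK3R3 (0.91), so its likeness to any other gene was lower than for STAG2. STAG3 (SEC14L1, 0.80, and BORCS5, 0.76) and REC8 (MRNIP, 0.82, and CCDC78, 0.78) had the lowest values, at counts where sampling noise is large. None of these likenesses was recomputed without control B replicates 1 and 2, on which the correlation of SMC3 with STAG2 depended.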

How the data were processed

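The authors sequenced strand-specific polyadenylated RNA libraries and deposited raw counts from HTSeq, a whole number of reads for each gene. The submitters' processing notes name TopHat2 2.0.9, HTSeq, DESeq2 1.10.1 and hg19; the gene annotation is not given in the sources used here. Rows that name no gene were left out (reads on no feature, 4.04% to 5.22% of the total over genes and these rows). The tests were edgeR 4.0.16 quasi-likelihood fits (R 4.3.3) over the groups compared. They used TMM normalization, filterByExpr, and Benjamini-Hochberg adjustment over all genes tested at 0.05. This main fit was run on simulated counts for some of the comparisons, and the permutation tests on known values. The alternative fits were not run on simulated counts. Levels are TMM-scaled CPM, and log2 CPM has a prior count of 2. Gene positions, transcript length and GC content came from GENCODE lifted to GRCh37 (96.6% of gene identifiers matched). The members and gene lists were chosen with earlier results of these data known. All 8 members are named, with WAPL and MAU2, at most 2 called genes of each other list and comparison by size of change, and the 2 genes most like each member; further genes were named after their values were seen. Same-numbered *ΔSCC4* and control A libraries shared their deviations from the group means (r = 0.68, 0.12 and 0.61 over genes; no label states a pairing), so the replicate block is given beside that comparison. Alternatives were DESeq2 1.42.0, its size factors, no filter, one fit over 18 libraries, a GC offset, the replicate block, leaving out each library and, chosen after seeing the data, leaving out control B replicates 1 and 2. No 2 replicates held identical counts.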

Additional observations from a re-analysis of the deposited data

How the results depend on the processing

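Results depended most on the GC offset, the replicate block and single libraries, and the causes were not tested. With the GC offset the number of members called moved from 0 to 1 in clone 3.3, from 0 to 2 in the double knockout against clone 3.3, from 0 to 2 for the clone difference and from 0 to 3 for the WAPL by SCC4 interaction, and the log2 difference of the SMC1A to SMC3 ratio in clone 3.3 moved from -0.30 to -0.08. With the replicate block, the members called moved from 1 to 3 in *ΔSCC4*, from 0 to 2 in the double knockout against clone 3.3 and from 2 to 0 over both clones; the block with the GC offset gave 5, 2 and 1, and 1 in clone 3.3, 2 for the clone difference and 3 for the interaction. Only control A and *ΔSCC4* met the pairing criterion, and each of their 3 numbers correlated best with its own; in the other pairs of groups the samples share only a number. With no filter 1 member (RAD21) passed in the double knockout against clone 3.3, and with one fit over all 18 samples 1 (REC8) passed the interaction. Leaving out single libraries gave 0 to 1 members called in clone 3.3, 1 to 6 in clone 1.14, 0 to 2 in *ΔSCC4*, 0 to 2 in the double knockout against clone 3.3, 1 to 3 against *ΔSCC4*, 0 to 2 over both clones, 0 to 1 for the clone difference and 0 to 1 for the interaction. The 6 arose without control B replicate 3. Without control B replicates 1 and 2 the number was 1 in clone 1.14 and 0 over both clones, and the log2 differences of clone 1.14 reversed for STAG1 to STAG2 (0.07), RAD21 to SMC3 (0.32) and SMC1A to SMC3 (0.14); control B is then 1 library, assumed to vary like the other groups.

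Over all genes, the number called moved by more than 1.5 times from 1008 in clone 3.3 (1616 with the GC offset, 1753 in one fit), from 1099 higher and 1437 lower in clone 1.14 (4338 with block and offset, 1415 to 4820 without single libraries), from 682 higher and 504 lower in *ΔSCC4* (2600 with the offset, 2556 in one fit, 5754 with the block, 5733 with both, 662 to 2317), from 1001 in the double knockout (1721 with the offset, 586 to 1552), from 1330 against clone 3.3 (2531 with the offset, 2357 with both, 861 to 1805), from 1732 higher and 1715 lower against *ΔSCC4* (5226 with the offset, 2080 to 5020), from 339 for the clone difference (705 with the offset, 173 with the block, 218 to 372, 179 without both control B libraries) and from 1453 for the interaction (3278 with the offset, 2880 with both). Control B against control A gave 70 higher and 10 lower; it gave 142 with DESeq2, 127 with no filter, 408 in one fit, 255 with the offset (76.5% of them higher) and 0 to 107 without single libraries. No paired fit was made for the controls. Of the member fold changes followed under the alternatives, 246 kept their side of the threshold, 35 no longer passed and 41 newly passed. Direction was not compared where neither fit passed. Not every member was followed in every comparison, and SMC3, STAG1 and STAG2 in clone 1.14 were left out of this tally. Depth limited STAG3 and SMC1B, with at most 19 reads and 1 read in a library.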
